A study of Mus musculus with 12 samples.

Results

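The 10 genes described here mark the successive steps by which new neurons arise in the adult brain, or mark cells in division: Nes, Sox2, Eomes, Neurod1, Sox11, Igfbpl1, Dcx, Calb2, Top2a and Mki67. They were picked by name among the 29608 genes named on the array, and 16 of its 43020 probe spots belong to them. Hippocampal RNA came from 12 adult female mice of about 12 weeks, all sacrificed in diestrus, 4 per phenotype. MRL/lpr mice carry a loss-of-function mutation of Fas on the MRL background and develop a lupus-like disease. Fn14ko mice (strain Fn14koMRL in the labels) are littermates backcrossed onto MRL/lpr that in addition lack Fn14, the receptor of the cytokine TWEAK encoded by Tnfrsf12a, so that both strains share the Fas mutation. MRL/+ mice (strain MRL/MpJ) lack the lupus mutation and were purchased, whereas the other strains were bred together.

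In the adult hippocampus, neural stem cells lie in the subgranular zone of the dentate gyrus. They divide to yield intermediate progenitors, then neuroblasts, which leave the cell cycle and mature through a doublecortin-positive stage into granule neurons. In bulk RNA of the whole tissue, fewer cells of a type and less RNA per cell cannot be told apart.

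A level is given here as a multiple of the median background-subtracted signal of the sample's dye channel. Nes and Sox2 had a spot at least 2 times brighter than its local background in all 12 samples, and their levels are relative to the median of the 8864 genes with such spots (the filtered scale). The other 8 genes had none, and their levels are relative to the median of all spots (the no-filter scale), which is a lower reference, so values from the 2 scales cannot be compared. How much lower differed between samples: the same signal was 19.3 to 26.9 times larger on the no-filter scale in Fn14ko, but 24.0 and 25.6 (Cy3) or 5.45 and 6.98 (Cy5) times in MRL/+, and 16.1, 14.7, 6.77 and 3.28 times in MRL/lpr. The log2 fold change of a gene is therefore lower on the no-filter than on the filtered scale by -0.54 for MRL/lpr against MRL/+ and by -1.46 for MRL/lpr against Fn14ko, and higher by 0.92 for Fn14ko against MRL/+. A direction is given with both references (the other one was added after seeing the data). A gene was called when its adjusted p in limma, over all genes of the fit, was under 0.05.

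Nes, Neurod1, Igfbpl1, Dcx and Mki67 carry the results below, and the first 30 bases of each of their 60-base probes are shown to say exactly what was hybridized. Positions are in mm9, for the whole probe. The Nes probe lies at chr3:87784303-87784362 on the plus strand, and the Igfbpl1 probe at chr4:45822379-45822438 on the minus strand. The Neurod1 probes lie on the minus strand at chr2:79293621-79293680 (probe 1) and chr2:79294309-79294368 (probe 2). The Dcx probes lie on the minus strand at chrX:140290854-140290913 (probe 1), chrX:140295893-140295952 (probe 2) and chrX:140296337-140296396 (probe 3), the last designed on a different Dcx transcript record. The Mki67 probes lie on the minus strand at chr7:142881591-142881650 (probe 1) and chr7:142884764-142884823 (probe 2). The whole probe held 43.3% G and C for Nes and 38.3% for Igfbpl1. The Neurod1 probes differed most in composition, with 23.3% for probe 1 and 45.0% for probe 2.
Nes: tcatcatctcagcctgctgagatcttgttt
Neurod1 probe 1: tttgttgtgattttgtacagaatttttaat
Neurod1 probe 2: cgctcagcatcaatggcaacttctctttca
Igfbpl1: cacacttatgagtgtcatgggtaaacaatg
Dcx probe 1: ataaaaagaaaagcaaaacagagatgtgcg
Dcx probe 2: tcccatgttgtcccaagtattcatttaaga
Dcx probe 3: aactcaacatgaattgatgacaacttggtg
Mki67 probe 1: atactactgctactgcctgagtttaaggaa
Mki67 probe 2: cagtgaacctaagccaagggtaactcgtgg

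Some samples stood apart and touch every result. MRL/lpr replicates 3 and 4 share 1 array with weak signal, on which the median spot was 1.93 and 1.73 times its background, against 4.42 to 12.6 times in the other 10 samples. Only 25.2% and 19.6% of spots were well above background there. In the Cy5 channel of both MRL/+ arrays (replicates 2 and 4), negative-control spots were 6.02 and 6.29 times as bright as background, against 1.12 to 2.83 in the other samples. Values without the weak array, which leaves 2 MRL/lpr mice on 1 array, are given beside the results. In that setting Neurod1, Sox11, Dcx, Calb2 and Mki67 had a spot that passed the filter in every sample left. Their values there are therefore on the filtered scale, and differ from those with all mice in scale as well as in samples. The 2 arrays of a phenotype share a slide, so slide and phenotype cannot be told apart. Tnfrsf12a was well above background in 4 of 4 Fn14ko samples at 2.91 to 5.08, against 3.43 to 12.9 in MRL/+ (no-filter scale); the extent of the deletion is not given in the sources used here, so this probe could not check the label. Fas was at 0.364 to 0.831 in MRL/lpr, 0.907 to 1.54 in Fn14ko and 1.23 to 2.36 in MRL/+, well above background in 1, 4 and 2 of 4 samples. On this no-filter scale Fn14ko thus overlapped MRL/+ and not MRL/lpr. The Fas signal there did not group the strains that share the Fas mutation. Rescaled to the filtered reference with the sample factors given above, the MRL/lpr and Fn14ko ranges overlap. With only 1 of 4 MRL/lpr samples well above background, this gene could not check the labels either.

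The tissue labels also need a remark. The source and tissue fields of all 12 samples name hippocampus, whereas the free-text description names cortex. Prox1, the transcription factor that defines dentate granule neurons, was well above background in 4 of 4 MRL/lpr samples, at 2.30 to 7.34 (no-filter scale). It was well above background in only 2 of 4 samples of each other phenotype, at 0.242 to 0.498 in Fn14ko and 0.481 to 0.681 in MRL/+. The other granule neuron genes that differed are given with the gene lists below. Of 10 genes typical of the hippocampus, 4 were called higher and 1 lower in MRL/lpr than in MRL/+, and 6 higher and 0 lower than in Fn14ko. In the filtered fit, which holds 9 of the 10, 9.17% and 3.98% of all genes were called. Prox1 and Lct are among the 10 and also on the granule neuron list. The summed level of the 10 went the other way, at 402, 426, 106 and 50.6 in MRL/lpr, the last 2 on the weak array. It was 478 to 742 in Fn14ko and 426 to 1270 in MRL/+ (no-filter scale). Much of this sum was 1 gene, Nrgn, at 232, 260, 44.0 and 13.5 in MRL/lpr, 307 to 556 in Fn14ko and 383 to 1130 in MRL/+. Rescaled to the filtered reference with the sample factors given above, the sums of MRL/lpr and Fn14ko overlap, and those of MRL/lpr stay below MRL/+. New neurons arise next to the granule cells, and the part of the dissected region in the results was not tested.

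**Figure D1:**
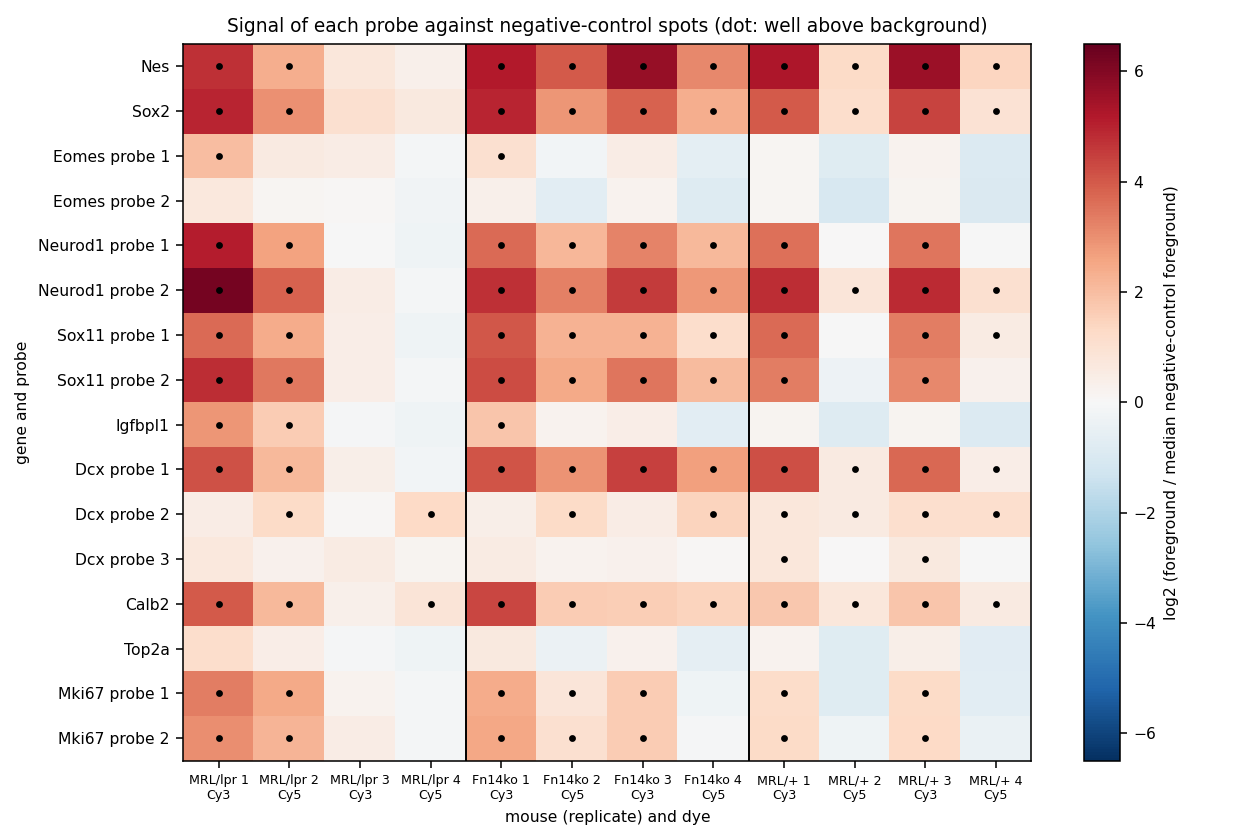
Foreground of each of the 16 probes in each sample (columns, by phenotype, replicate and dye), as log2 of its ratio to the median negative-control spot of the same channel, with a dot where the spot was well above background. Signal over negative controls is nearly lost in MRL/lpr replicates 3 and 4 and is low in MRL/+ replicates 2 and 4, and the rows of Top2a, Eomes and Igfbpl1 are pale almost throughout.

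Nes, which encodes the intermediate filament nestin of neural stem cells and of some vascular cells, was the only one of the 10 genes called with all mice. On the filtered scale its level in MRL/lpr replicates 1 to 4 was 0.189, 0.148, 0.212 and 0.478. It was 0.297, 0.396, 0.494 and 0.356 in Fn14ko and 0.442, 0.671, 0.577 and 0.547 in MRL/+. On this scale the means were 0.257 ± 0.15 (SD, n = 4) in MRL/lpr, 0.386 ± 0.0829 in Fn14ko and 0.559 ± 0.0945 in MRL/+, and MRL/lpr and MRL/+ overlapped only through MRL/lpr replicate 4, on the weak array. On the no-filter scale MRL/lpr (1.44 to 3.04) lay below Fn14ko (6.88 to 13.3) and MRL/+ (3.66 to 14.7) with no overlap. On that scale 31.5% of all genes did not overlap between MRL/lpr and Fn14ko, and 5.64% between MRL/lpr and MRL/+. Fn14ko had the highest mean (9.15 against 8.21 in MRL/+). Nes was well above background in 4 of 4 samples of each of these phenotypes, but in MRL/lpr only in replicates 1 and 2.
Nes was 2.40-fold lower in MRL/lpr than in MRL/+ (log2 fold change -1.26 ± 0.35, SE, adjusted p = 0.0471). The exact permutation test of 4 mice against 4, two-sided, gave p = 0.0571, where the smallest value it can give is 0.0286. In that filtered fit 9.17% of all genes were called, and in the no-filter fit, which serves the dimmer genes, 0.993%, so 1 of 10 members called is near the background; 3 of the 10 reached an unadjusted p of 0.05, as did 36.6% of all genes in the filtered and 16.5% in the no-filter fit. The other fold changes on the filtered scale were -0.72 ± 0.35 for MRL/lpr against Fn14ko (adjusted p = 0.155) and -0.54 ± 0.35 for Fn14ko against MRL/+ (adjusted p = 0.545). With no filter, Nes was called lower in MRL/lpr than in Fn14ko, at -2.17 ± 0.45 (adjusted p = 0.0139), its difference from MRL/+ was -1.80 ± 0.45 and not called (adjusted p = 0.0754), and Fn14ko against MRL/+ turned to 0.37.
The call of Nes was lost with the array as a random block (adjusted p = 0.321) and stood in only 3 of the 12 fits that each left out 1 mouse, those without MRL/lpr replicate 1, 2 or 4 (adjusted p from 0.0136 to 0.145 over the 12). Without the weak array it stood, at a log2 fold change of -1.56 ± 0.22 (adjusted p = 0.00145), and Nes was then also called lower in MRL/lpr than in Fn14ko, at -1.27 ± 0.22 (adjusted p = 0.00689). In that scale of 17936 genes the 2 MRL/lpr mice left were at 0.711 and 0.559, below all 4 Fn14ko mice (1.18 to 2.01) and all 4 MRL/+ mice (1.70 to 2.28). The share of all genes called without the weak array was larger as well, 15.7% for MRL/lpr against MRL/+ and 9.12% for MRL/lpr against Fn14ko. In the Cy3 samples alone, added after seeing the data, the difference from MRL/+ was -1.33 with all arrays and -1.47 without the weak one, with adjusted p of 0.544 and 0.101.

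Sox2, the transcription factor that keeps neural stem cells undifferentiated and that astrocytes also express, was at 0.221, 0.242, 0.315 and 0.775 in MRL/lpr. In Fn14ko it was at 0.259, 0.182, 0.135 and 0.206, and in MRL/+ at 0.181, 0.622, 0.252 and 0.386. The 3 phenotypes overlapped, and the highest MRL/lpr value belonged to replicate 4 on the weak array. The log2 fold change was 0.07 ± 0.43 for MRL/lpr against MRL/+, 0.83 ± 0.43 for MRL/lpr against Fn14ko and -0.77 ± 0.43 for Fn14ko against MRL/+, with adjusted p of 0.917, 0.166 and 0.455. Without the weak array these became -0.32, 0.20 and -0.51, and with no filter -0.47, -0.63 and 0.15, none called.

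Eomes (Tbr2), the transcription factor of intermediate progenitors, was barely measurable. One of its 2 probes was well above background in MRL/lpr replicate 1 and Fn14ko replicate 1 and in no other sample, and the other probe in none. Levels were 0.252 to 0.707 in MRL/lpr, 0.0703 to 0.215 in Fn14ko and 0.103 to 0.594 in MRL/+, so MRL/lpr lay above Fn14ko with no overlap. That holds for 31.5% of all genes in this comparison, where the no-filter fit called 12.8% and the filtered fit 3.98% of genes but 0 of the 10 members, of which 3 reached an unadjusted p of 0.05, against 40.0% and 36.2% of all genes in these fits. Without MRL/lpr replicate 2, 4 members were called, Sox2 and Eomes higher and Neurod1 and Sox11 lower in MRL/lpr. The log2 fold change of Eomes between these 2 phenotypes was 1.62 ± 0.59 (adjusted p = 0.0661), with the 2 highest MRL/lpr values from the weak array, where neither probe was well above background. It was 1.02 ± 0.46 without the weak array (adjusted p = 0.148). No fold against MRL/+ is given, since none of its samples measured the gene.

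Neurod1, which drives the differentiation of neuroblasts and stays on in granule neurons, was among the genes whose direction turned with the weak array. Its level was 6.43 and 4.72 in MRL/lpr replicates 1 and 2 but 0.734 and 0.676 in replicates 3 and 4. Fn14ko was tight at 4.27, 3.82, 4.17 and 4.36, and MRL/+ split by dye into 5.51 and 6.13 in Cy3 and 1.95 and 2.14 in Cy5. With all mice the log2 fold change was -1.07 ± 0.69 for MRL/lpr against Fn14ko (adjusted p = 0.255) and -0.81 ± 0.69 for MRL/lpr against MRL/+ (adjusted p = 0.589). With the filtered reference the former turned to 0.38 and the latter was -0.27. With only MRL/lpr replicate 2 left out, limma called Neurod1 lower in MRL/lpr than in Fn14ko, at -1.66 (adjusted p = 0.0421).
Without the weak array, and so on the filtered scale, Neurod1 was instead 1.90-fold higher in MRL/lpr than in Fn14ko (log2 fold change 0.92 ± 0.19, adjusted p = 0.0137). The difference from MRL/+ was then 0.52 ± 0.19 (adjusted p = 0.0859). The MRL/lpr mice left were at 1.50 and 1.21 on that scale, above the Fn14ko range of 0.631 to 0.903 and the MRL/+ range of 0.881 to 0.978. Both probes went the same way: on the no-filter scale probe 1 was 0.36 and probe 2 was 0.44 higher (mean log2 difference) in these 2 MRL/lpr mice than in Fn14ko. In MRL/+ Cy5 samples probe 1 was no brighter than the negative controls, at 1.02 and 0.982 times their median.

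Sox11, a transcription factor of immature neurons, was at 2.32, 3.58, 1.01 and 0.832 in MRL/lpr, 3.77, 2.68, 1.89 and 2.31 in Fn14ko and 3.08, 1.19, 2.80 and 1.83 in MRL/+. The phenotypes overlapped, and the log2 fold changes of -0.36 ± 0.50, -0.67 ± 0.50 and 0.31 ± 0.50 for MRL/lpr against MRL/+, MRL/lpr against Fn14ko and Fn14ko against MRL/+ were not called (adjusted p = 0.797, 0.328 and 0.708). All 3 changed sign without the weak array, where Sox11 was on the filtered scale, to 0.32, 0.68 and -0.36. They also did with the filtered reference, to 0.18, 0.79 and -0.61. Fn14ko against MRL/+ holds no sample of the weak array, so its change of sign came with the scale. Its 2 probes disagreed for Fn14ko against MRL/+, with mean log2 differences of -0.30 and 0.79.

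Igfbpl1, an IGF-binding-like protein of newborn neurons in the dentate gyrus, was at the edge of detection. Its level was 0.775, 1.21, 0.525 and 0.798 in MRL/lpr, 0.546, 0.408, 0.122 and 0.193 in Fn14ko and 0.0971, 0.606, 0.131 and 0.562 in MRL/+. It was well above background in MRL/lpr replicates 1 and 2, in Fn14ko replicate 1 and in none of the MRL/+ samples. Because MRL/+ gives only a bound, the fold of MRL/lpr over MRL/+ was bounded at 1.42 with all 4 MRL/lpr mice, and at 1.74 with the 2 that measured it. The bound averages over dyes. In Cy5, MRL/lpr replicate 2, at 1.21, lay under the lowest signal well above background in MRL/+, 1.92 and 1.78, so no excess is bounded there. In Cy3, replicate 1, at 0.775, lay above the MRL/+ limits of 0.162 and 0.174. The fit gave adjusted p = 0.193 with all mice and 0.0245 without the weak array, where 34.7% of all genes of the no-filter fit were called.
Against Fn14ko the log2 fold change was 1.56 ± 0.58 (adjusted p = 0.0706), and 1.85 ± 0.60 without the weak array (adjusted p = 0.0542), where 14.6% of genes were called. With the scanner software's own processed signal in place of the median-normalized one, Igfbpl1 was called higher in MRL/lpr in both comparisons, with adjusted p of 0.0293 against MRL/+ and 0.0182 against Fn14ko.

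**Figure D2:**
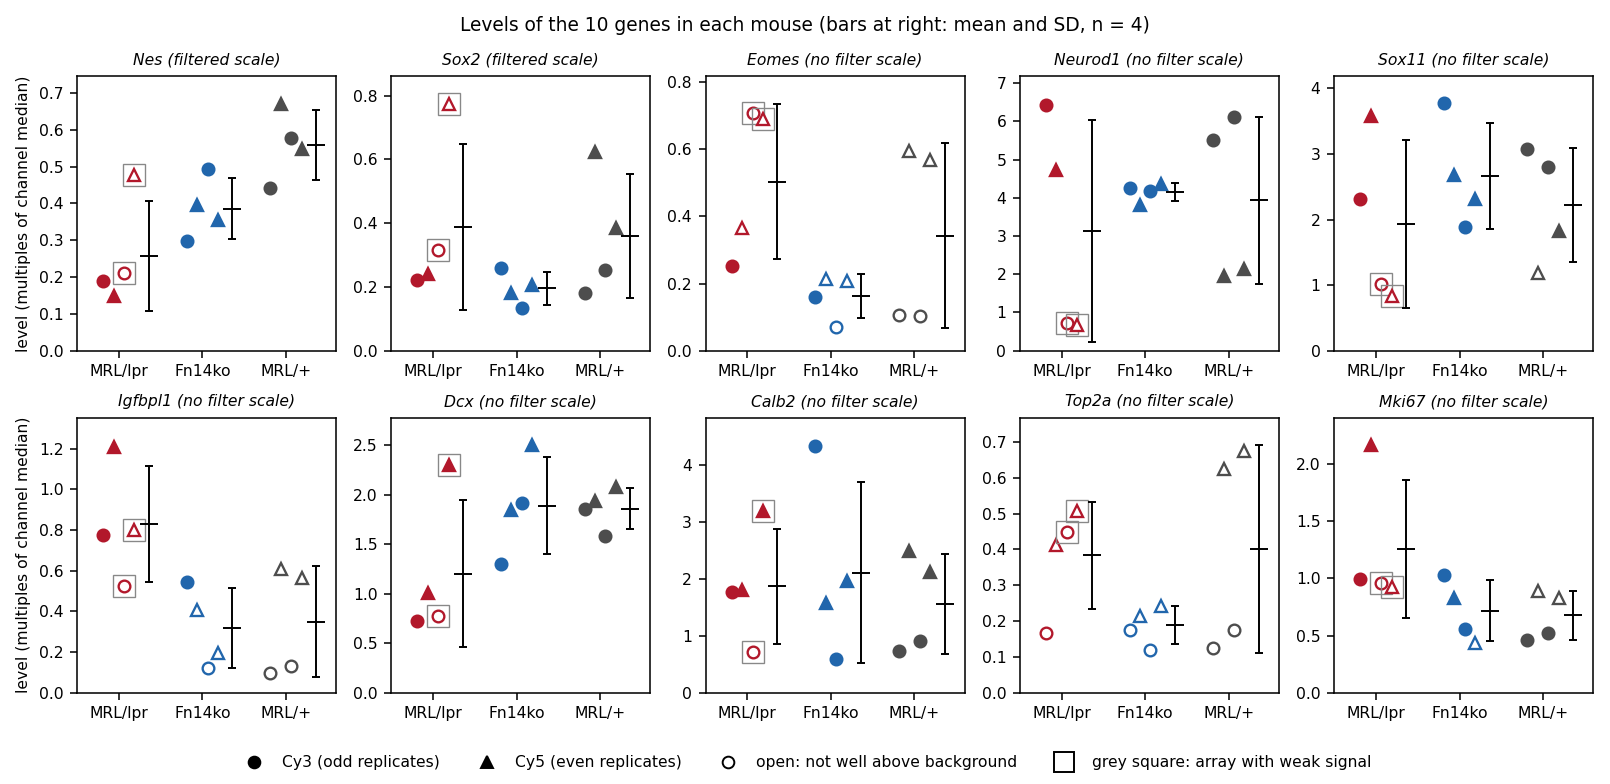
Level of each of the 10 genes in each mouse, as multiples of the channel median on the scale named above each panel; circles are Cy3 and triangles Cy5 samples, open symbols were not well above background, grey squares mark the weak array, and the bars give mean and SD (n = 4). The levels of Nes, here on the filtered scale, rise from MRL/lpr to MRL/+ apart from MRL/lpr replicate 4. The MRL/+ samples split by dye, with no overlap of Cy3 and Cy5, for every gene but Nes, and only narrowly for Dcx.

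Dcx, the microtubule-associated protein doublecortin that marks migrating neuroblasts and immature neurons, was at 0.723, 1.01, 0.778 and 2.30 in MRL/lpr. It was at 1.30, 1.85, 1.92 and 2.50 in Fn14ko and at 1.86, 1.94, 1.58 and 2.08 in MRL/+. Of the MRL/lpr mice, 3 of 4 lay below every other sample, and replicate 4 on the weak array lay among the highest. The log2 fold change was -0.79 ± 0.35 both against MRL/+ (adjusted p = 0.289) and against Fn14ko (adjusted p = 0.114), and -0.01 ± 0.35 between Fn14ko and MRL/+ (adjusted p = 0.992). Without the weak array Dcx was on the filtered scale and rested on probe 1 alone, the only one to pass the filter in every sample left. There it was called lower in MRL/lpr than in MRL/+, at -0.81 ± 0.24 (adjusted p = 0.0463), and not against Fn14ko, at -0.71 ± 0.24 (adjusted p = 0.0991). These values therefore differ from those with all mice, which average 3 probes, in probes and scale too. With the filtered reference and all mice the fold changes were -0.25 against MRL/+ and 0.67 against Fn14ko, so the direction against Fn14ko turned with the scale.
The 3 Dcx probes were not equal witnesses. Probe 1 was well above background in 10 of 12 samples and read 1.99, 1.84, 0.828 and 0.814 in MRL/lpr, 3.70, 4.00, 5.54 and 4.95 in Fn14ko and 4.99, 2.21, 4.05 and 1.87 in MRL/+. By this probe all MRL/lpr mice lay below all Fn14ko mice, as the groups did not overlap for 31.5% of all genes, and the values of MRL/lpr replicates 3 and 4 were not well above background. The mean log2 difference was -1.84, or -1.23 without the weak array. Probe 2 was well above background in 8 samples and probe 3 in 2, and both read higher in the Cy5 than in the Cy3 sample of each of the 6 arrays. The mean log2 difference of MRL/lpr against Fn14ko was 0.62 by probe 2, which turned to -0.61 without the weak array; probe 3 was well above background in no sample of either and gives none. Probes 1 and 2 had a lower mean in MRL/lpr than in MRL/+ with or without that array (no-filter scale).

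Calb2, the calcium-binding protein calretinin, is transient in newborn granule neurons and lasting in a class of interneurons and in mossy cells. Its level was 1.77, 1.80, 0.722 and 3.19 in MRL/lpr, 4.34, 1.57, 0.594 and 1.96 in Fn14ko and 0.726, 2.50, 0.904 and 2.12 in MRL/+. The spread within a phenotype exceeded every difference between phenotypes, and the log2 fold changes were 0.27 ± 0.56, -0.03 ± 0.56 and 0.30 ± 0.56 (adjusted p = 0.888, 0.974 and 0.746). They were 0.23, 0.61 and -0.37 without the weak array and 0.81, 1.43 and -0.62 with the filtered reference. The lowest and the highest level of all 12 samples both came from Fn14ko mice, replicates 3 and 1.

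**Figure D3:**
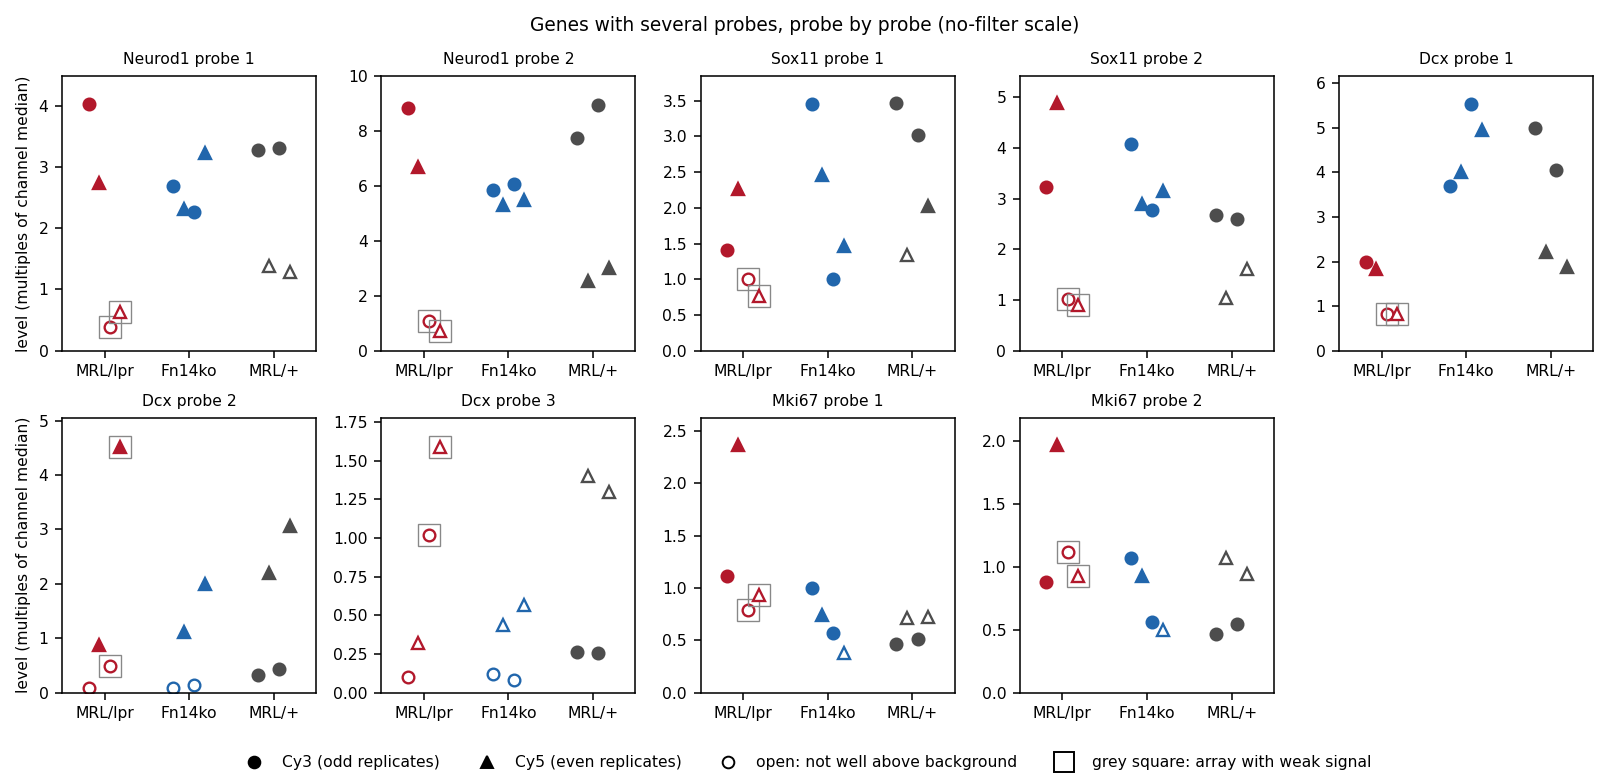
Level of each probe of Neurod1, Sox11, Dcx and Mki67 in each mouse, as multiples of the channel median on the no-filter scale, with symbols for dye, detection and the weak array. Dcx probe 1 separates MRL/lpr from Fn14ko, whereas Dcx probes 2 and 3 follow the dye, and both Neurod1 probes put MRL/lpr replicates 1 and 2 above the weak array.

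Of the cell division genes, Top2a, the DNA topoisomerase of replicating cells, was not well above background in any of the 12 samples. Its signal in MRL/+ Cy5 samples was 0.580 and 0.601 times the median negative control, so no fold is given. Mki67, which encodes the proliferation antigen Ki-67, was measured in 7 of 12 samples by both probes. Its level was 0.993, 2.17, 0.956 and 0.928 in MRL/lpr, 1.03, 0.833, 0.561 and 0.438 in Fn14ko and 0.463, 0.893, 0.526 and 0.830 in MRL/+. MRL/lpr values lay above those of MRL/+, as the groups did not overlap for 5.64% of all genes, but the margin lay between 0.928 (MRL/lpr replicate 4) and 0.893 (MRL/+ replicate 2), neither well above background by either probe, nor were MRL/lpr replicate 3 and MRL/+ replicate 4.
The log2 fold change of Mki67 was 0.85 ± 0.40 for MRL/lpr against MRL/+ (adjusted p = 0.306), 0.79 ± 0.40 for MRL/lpr against Fn14ko (adjusted p = 0.152) and 0.06 ± 0.40 for Fn14ko against MRL/+ (adjusted p = 0.931). With the weak array left out these were 1.02 ± 0.57, 1.63 ± 0.57 and -0.61 ± 0.46, none called. Both probes gave positive mean log2 differences for MRL/lpr, of 1.00 and 0.71 against MRL/+ and 0.90 and 0.68 against Fn14ko. The difference stayed positive under every alternative tried, from 0.58 to 2.04 against MRL/+ and from 0.36 to 2.25 against Fn14ko, and was called only for the latter, with the scanner software's processed signal (adjusted p = 0.036) and with the filtered reference (2.25, adjusted p = 0.0496), where 8.37% of all genes were called.

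Between Fn14ko and MRL/+, 0 of the 10 members were called with all mice and 0 without the weak array, and none reached an unadjusted p of 0.05 with all mice. The filtered fit called 0.519% of genes in this comparison and the no-filter fit 0.0%, with 2590 of its genes under an unadjusted p of 0.05, and 7.89% of genes did not overlap. Without the weak array, 21.1% of genes of the filtered and 25.4% of the no-filter fit were called. The Dcx difference of -0.01 averaged probes that opposed each other, with mean log2 differences of 0.57 for probe 1 and -1.27 for probe 2, and it was -0.92 with the filtered reference. Neurod1, Sox11, Calb2 and Mki67, at 0.27, 0.31, 0.30 and 0.06, turned to -0.65, -0.61, -0.62 and -0.86 with that reference. The SE of the measured members ran from 0.35 (Nes and Dcx) to 0.69 (Neurod1).

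**Figure D4:**
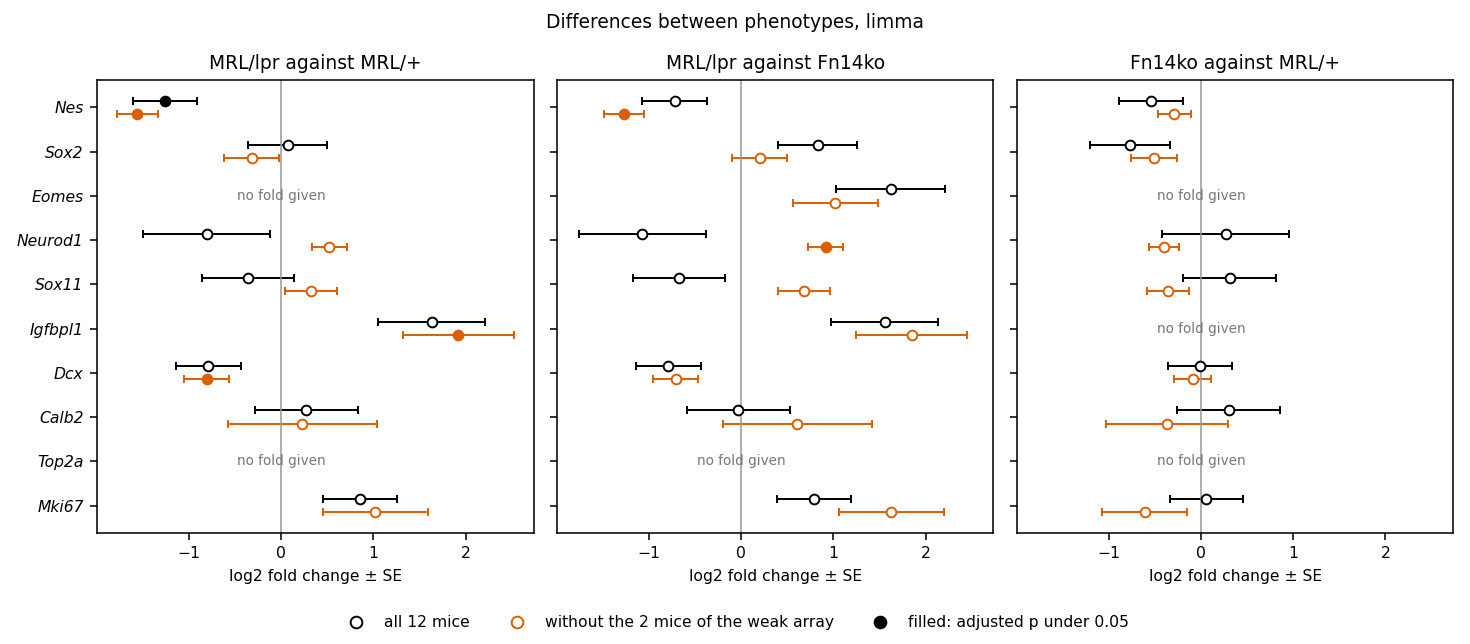
Log2 fold change with SE of each gene in the 3 comparisons, with all 12 mice (black) and without the weak array (orange); filled points had an adjusted p under 0.05. Only Nes is filled with all mice, the Neurod1 and Sox11 points lie on opposite sides of 0 in the 2 settings, and genes without an interpretable fold are marked. The Igfbpl1 point against MRL/+ depends on signals below detection and the text gives a bound in its place.

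Genes of the same pathway that are not among the 10 were counted by list, each gene taken from the filtered fit where it had a valid spot and otherwise from the no-filter fit. Each count stands against 9.17% of all genes called in the filtered and 0.993% in the no-filter fit for MRL/lpr against MRL/+, and 3.98% and 12.8% for MRL/lpr against Fn14ko. Over all genes the median log2 fold change was -0.01, 0.03 and -0.16 in the filtered and -0.25, -0.08 and -0.02 in the no-filter fit, for MRL/lpr against MRL/+, MRL/lpr against Fn14ko and Fn14ko against MRL/+. Of the 112 listed genes, 0 were called by limma for Fn14ko against MRL/+ with all mice, and 11 had an unadjusted p under 0.05. When arrays entered the fit as a random block, 0 of the 112 genes were called in any comparison.

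Of 17 radial glia and stem cell genes, 1 was called higher and 0 lower in MRL/lpr than in MRL/+, and 2 higher and 1 lower than in Fn14ko. Gfap, the intermediate filament of astrocytes and radial glia, was at 3.02, 3.24, 2.82 and 3.47 in MRL/lpr, 1.91, 0.938, 1.14 and 0.998 in Fn14ko and 1.06, 0.371, 0.994 and 0.463 in MRL/+ (filtered scale). On this scale all MRL/lpr mice lay above all others, at a log2 fold change of 2.26 ± 0.30 against MRL/+ (adjusted p = 0.00296) and 1.39 ± 0.30 against Fn14ko (adjusted p = 0.0329), with 2.32 and 1.32 without the weak array. With no filter the groups overlapped and neither was called, at 1.60 against MRL/+ (adjusted p = 0.259) and -0.07 against Fn14ko (adjusted p = 0.938). The homeobox gene Hopx was called higher in MRL/lpr than in Fn14ko, at 1.16 ± 0.29 (adjusted p = 0.0485, 1.19 without the weak array), but turned to -0.30 with no filter. Prom1, which encodes prominin, was called lower with no filter, at -1.98 ± 0.55 (adjusted p = 0.0408), but not with the filtered reference (-0.53) or without the weak array (-0.38). In MRL/lpr against MRL/+, Nes, another filament gene of these cells, had the opposite sign to Gfap on both scales.

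Of 21 progenitor and neuroblast genes, 1 was called higher and 1 lower in MRL/lpr than in MRL/+, and 1 higher and 2 lower than in Fn14ko. Stmn1, the microtubule regulator stathmin of immature neurons, was at 6.66, 8.61, 1.91 and 2.01 in MRL/lpr, against 13.2 to 18.2 in Fn14ko and 15.1 to 23.8 in MRL/+ (filtered scale). Its log2 fold change was -2.38 ± 0.46 against MRL/+ (adjusted p = 0.0141) and -2.07 ± 0.46 against Fn14ko (adjusted p = 0.033). The 2 lowest values came from the weak array, without which the fold changes were -1.24 and -1.19, both called. With no filter they were -2.92 (adjusted p = 0.152) and -3.53 (adjusted p = 0.0352). Bhlhe22, a transcription factor of excitatory neurons, was called higher in MRL/lpr than in MRL/+, at 1.78 ± 0.28 (adjusted p = 0.00688) and 1.91 without the weak array, but not with no filter (1.24, adjusted p = 0.351). Tbr1, which follows Eomes in the excitatory lineage and is known above all from the deep layers of the cortex, was at 1.02 to 7.56 in MRL/lpr, 34.2 to 46.4 in Fn14ko and 13.8 to 51.7 in MRL/+ (no-filter scale). It was called lower in MRL/lpr than in Fn14ko, at -3.80 ± 0.71 (adjusted p = 0.00877), and the call stood at -2.34 with the filtered reference and at -1.96 without the weak array. Neurod4, a proneural factor, was called higher, at 2.36 ± 0.61 (adjusted p = 0.0319), 3.82 with the filtered reference and 3.31 without the weak array. It was near the edge of detection, well above background in 2 of 4 MRL/lpr samples, 1 of 4 Fn14ko samples and no MRL/+ sample. Its levels overlapped, at 0.143 to 2.61 in MRL/lpr and 0.0451 to 0.921 in Fn14ko (no-filter scale).

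Granule neuron genes had the largest share called of the 5 lists in both comparisons with MRL/lpr. Of 10, 3 were called higher and 0 lower in MRL/lpr than in MRL/+, and 4 higher and 0 lower than in Fn14ko, with list medians of 1.25 and 1.43. In each comparison 6 of the 10 had a positive fold change, so the list did not move as a whole. The summed level of the 10 was 87.6 to 112 in MRL/lpr, below the 120 to 167 of Fn14ko and inside the 32.9 to 193 of MRL/+ (no-filter scale). Rescaled to the filtered reference with the sample factors given above, every MRL/lpr sum lies above every Fn14ko sum. The order of these 2 phenotypes therefore turned with the scale. Lct, enriched in dentate granule cells, was at 1.04, 0.816, 1.25 and 0.904 in MRL/lpr, 0.0806 to 0.140 in Fn14ko and 0.130 to 0.160 in MRL/+ (filtered scale), with no overlap. Its log2 fold change was 2.71 ± 0.29 against MRL/+ (adjusted p = 0.000978) and 3.19 ± 0.29 against Fn14ko (adjusted p = 0.000641). With no filter MRL/lpr replicate 4, at 2.96, lay inside both other ranges, and the fold changes were 2.18 (adjusted p = 0.0586) and 1.73 (adjusted p = 0.0444). Prox1 was higher in MRL/lpr by 2.83 ± 0.41 (adjusted p = 0.00993) and 3.37 ± 0.41 (adjusted p = 0.00173), and the desmosome gene Dsp by 4.29 ± 0.56 (adjusted p = 0.00553) and 4.71 ± 0.56 (adjusted p = 0.00173). Lct, Prox1 and Dsp were well above background in 4 of 4 MRL/lpr mice and were also called in both comparisons without the weak array, and Prox1 and Dsp with either reference. The neurogenesis genes were measured in the same RNA, and the part of granule neuron content in their differences was not tested.

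Of 39 cell cycle genes, 1 was called higher and 0 lower in MRL/lpr than in MRL/+, and 3 higher and 1 lower than in Fn14ko, against list medians of 0.10 and 0.43. Mcm4, a subunit of the replicative helicase, was called higher in MRL/lpr than in MRL/+, at 1.13 ± 0.32 (adjusted p = 0.0473) and 0.88 without the weak array, but not with no filter (0.60, adjusted p = 0.571). Against Fn14ko, the spindle genes Tpx2 (1.10 ± 0.31, adjusted p = 0.0409) and Nusap1 (4.16 ± 1.04, adjusted p = 0.0289) were called higher and the cell cycle inhibitor Cdkn1a lower (-1.69 ± 0.41, adjusted p = 0.0252). With the filtered reference Tpx2 and Nusap1 were still called and Cdkn1a was not (-0.24). All 3 were called without the weak array, at 1.85, 1.76 and -1.27. The size of the Nusap1 fold change, though not its call, depended on the weak array. Nusap1 was at 0.735 and 0.750 in MRL/lpr replicates 1 and 2 but 23.1 and 18.8 in replicates 3 and 4, against 0.186 to 0.241 in Fn14ko. Tpx2 was at 0.840 to 1.10 in MRL/lpr and 0.400 to 0.499 in Fn14ko. Cdk1, Cdk6, Aurkb and Cenpf were, like Top2a, well above background in no sample.

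Of 25 genes for signals of the stem cell niche, 1 was called higher and 0 lower in MRL/lpr than in MRL/+, and 2 higher and 2 lower than in Fn14ko. Smo, the transducer of hedgehog signals, was at 1.02 to 1.34 in MRL/lpr, 0.411 to 0.710 in Fn14ko and 0.518 to 0.704 in MRL/+ (filtered scale), with log2 fold changes of 0.95 ± 0.23 against MRL/+ (adjusted p = 0.0325) and 1.15 ± 0.23 against Fn14ko (adjusted p = 0.0253), and 0.99 and 0.94 without the weak array. With no filter the groups overlapped and the values were 0.41 and -0.30, so the direction against Fn14ko turned with the scale. Reln, which encodes the migration signal reelin, was called lower in MRL/lpr than in Fn14ko, at -1.50 ± 0.42 (adjusted p = 0.0412), as was the growth factor receptor Igf1r, at -2.44 ± 0.69 (adjusted p = 0.0417). Neither was called with the filtered reference (-0.04 and -0.99) or without the weak array (-0.63 and -0.57). List medians were -0.01 and -0.18.

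**Figure D5:**
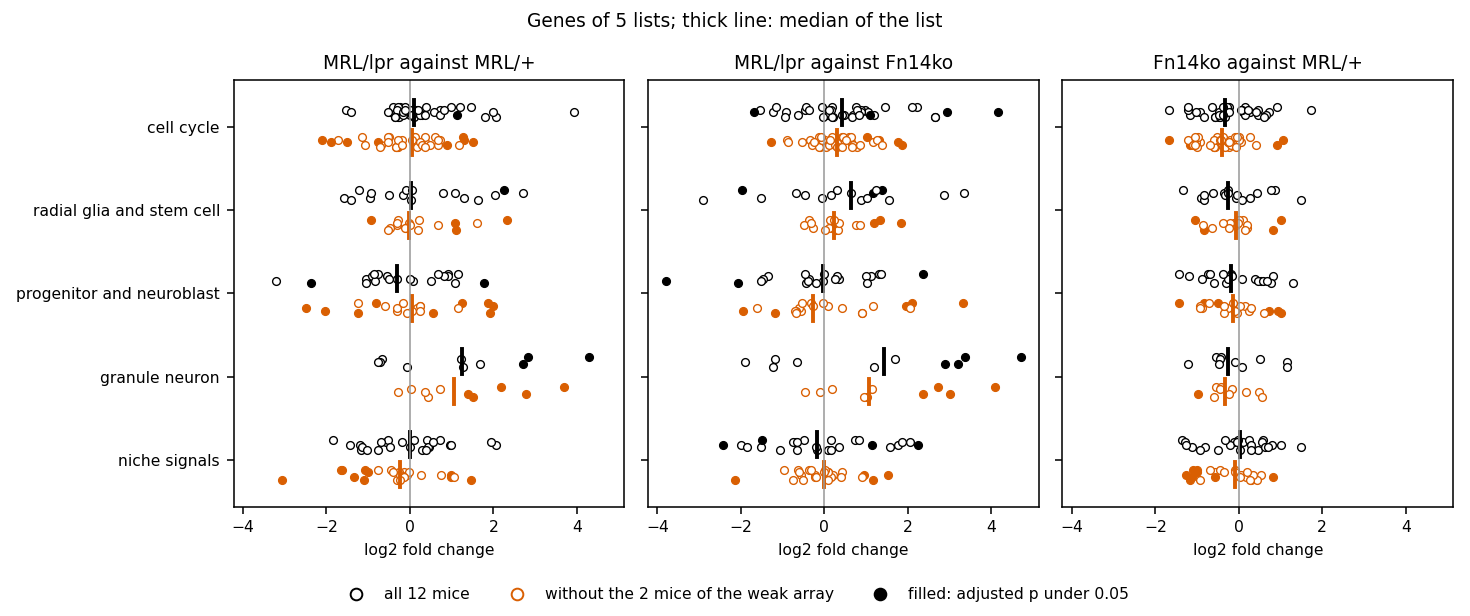
Log2 fold change of every gene of the 5 lists in the 3 comparisons, with all 12 mice (black) and without the weak array (orange); filled points had an adjusted p under 0.05 and thick lines are list medians. The median of the granule neuron list lies to the right in both comparisons with MRL/lpr, at 1.25 and 1.43. In each of them 6 of its 10 genes lie above 0, and the other lists spread around 0.

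Markers of other cells that share these genes were counted in the same way, beside the same shares of all genes called. For MRL/lpr these shares were 9.17% (filtered) and 0.993% (no filter) against MRL/+, and 3.98% and 12.8% against Fn14ko. Of 8 genes of calretinin and related interneurons, 3 were called lower in MRL/lpr than in Fn14ko, with the neuropeptide gene Vip at 0.733 to 4.84 in MRL/lpr and 12.8 to 15.1 in Fn14ko (no-filter scale, on which every sum below is given). None of the 8 was called against MRL/+. Vip and Penk were also called with the filtered reference and without the weak array, and Reln with neither (-0.04 and -0.63). The summed level of the 8 genes was 155, 167, 37.4 and 20.7 in MRL/lpr, the last 2 on the weak array. It was 251 to 483 in Fn14ko and 69.8 to 312 in MRL/+, and it stands beside the Calb2 values. Choroid plexus genes summed to 66.8 to 632 in MRL/lpr, 13.0 to 149 in Fn14ko and 14.8 to 30.5 in MRL/+, with Ttr at 538 of the 632. Of 10, 1 (Ttr) was called higher in MRL/lpr than in MRL/+ and 2 (Ttr and Kcne2) than in Fn14ko. In both comparisons all 10 had a positive fold change. Without the weak array 6 of 10 were called higher in each, where 15.7% and 9.12% of all genes of the filtered fit were called. Endothelial genes, whose cells can express Nes, summed to 136, 108, 27.5 and 16.2 in MRL/lpr, again lowest on the weak array, 187 to 354 in Fn14ko and 42.9 to 202 in MRL/+, with 2 of 10 called lower in MRL/lpr than in Fn14ko, neither of them with the filtered reference or without the weak array, and none against MRL/+. T cells can divide and then express Mki67 and Top2a, and T cell genes summed to 24.4 to 43.1 in MRL/lpr, 23.0 to 25.8 in Fn14ko and 20.6 to 46.8 in MRL/+, with 2 of 11 (Cd4 and Cd247) called higher in MRL/lpr than in Fn14ko and none against MRL/+; Cd3g was well above background in no sample. Cd247 was at 0.375 and 0.440 in MRL/lpr replicates 1 and 2 but at 10.3 and 8.77 on the weak array, and its log2 fold change of 3.53 was 1.26 without that array. Cd4 had a fold change of 1.38 on the filtered scale and -0.04 with no filter. Microglia genes had 2 of 10 called lower in MRL/lpr than in MRL/+ and 1 lower than in Fn14ko. Thalamus genes had 1 of 9 called higher than in MRL/+, and 2 higher and 1 lower than in Fn14ko. Of 7 oligodendrocyte precursor genes, 0 were called against MRL/+ and 1 lower than in Fn14ko, and genes of the subventricular zone and olfactory bulb had 0 called in either comparison. The part of these cells in the members' differences was not tested.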

How the data were processed

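RNA of 2 mice of 1 phenotype was hybridized to each of 6 two-colour Agilent arrays, the odd replicate in Cy3 and the even one in Cy5. The authors read the scans with Agilent's Feature Extraction software, version 12.1; the deposited files hold, per spot and dye, the mean foreground and median background as intensity on a linear scale, not normalized between channels; flags and the software's processed signal were also read. Here background was subtracted, spots under 2 times background or with outlier flags were removed, the 10877 spots passing in each of the 12 samples were retained, and each channel was divided by its median. Genes without such a spot were taken from a fit with no filter, with signals under 1% of the channel median set to 1%. A gene's level is the mean over its spots, then its probes, before taking logs. A spot was called well above background by the software.

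Log2 levels were fitted in R 4.3.3 using limma 3.58.1 (eBayes with trend), with all 12 samples in one fit with dye as covariate and Benjamini-Hochberg adjustment over all genes of the fit, and exact permutation tests were run in Python 3.11.15. The limma fit was also run on simulated data with known changes and independent samples, so effects shared by an array were not simulated. Replicates are separate mice. The small number of arrays and, for dim probes, the low signal over background limit the precision. Where no sample of a group was well above background, the fold is a bound, against the higher of the gene's own signal and the lowest signal well above background on each array. All 10 genes are named with every probe; from each list, at most 3 called genes with the lowest adjusted p per comparison are named, plus Fas and Tnfrsf12a. The genes and lists were chosen with earlier results of these data known. Alternatives were no filter, normexp with an offset of 50, quantile normalization, the processed signal, the array as random block, a replicate block, no dye term, the methods' t-test with and without their composite criterion, leaving out the weak array or each mouse, and, chosen after seeing the data, each dye alone and the filtered reference for all genes (each channel divided by the median of its filtered spots). Probe positions are the files' mm9 coordinates; their place in exons or UTRs was not analysed here.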

Additional observations from a re-analysis of the deposited data

Results flagged for a closer look

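Among the 30 sets of 4 mice (10 genes in 3 phenotypes), 2 held a mouse far from the other 3 by Dixon's criterion, which chance alone passes in about 1 of 20 groups. Sox2 was at 0.775 in MRL/lpr replicate 4, on the weak array and not well above background, against 0.221, 0.242 and 0.315 in the others. Mki67 was at 2.17 in MRL/lpr replicate 2, where both probes were well above background, against 0.993, 0.956 and 0.928.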

How the results depend on the processing

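Depth of signal and the array layout both limit the results. MRL/lpr rests on 1 array once the weak array is left out, and slide and phenotype cannot be told apart. Negative controls stood at 6.02 and 6.29 times background in the MRL/+ Cy5 samples. Over 25 alternatives for each of 24 fold changes (600 values), 508 kept direction and side of the threshold, 14 gained the call, 17 lost it (all of Nes against MRL/+) and 61 reversed; the cause was not tested. Members called for MRL/lpr against MRL/+ went from 1 to 0 with no filter, normexp, the array as random block, the methods' t-test with or without the composite criterion, and each dye subset (Cy3, Cy5, Cy3 without the weak array); to 2 with the processed signal; to 3 without the weak array; and ranged from 0 to 1 when 1 mouse was left out. Same-numbered mice share only a dye: their deviations correlated from -0.395 to 0.503, and over 0.1 in every pair only for Fn14ko with MRL/+. With a replicate block, the count for MRL/lpr against MRL/+ was 0 (Nes adjusted p = 0.0602), and those for cell cycle and niche genes were 3 and 1. For MRL/lpr against Fn14ko, members called went from 0 to 1 with no filter, to 2 with normexp, to 2 with the processed signal, to 2 without the weak array, to 1 (Mki67) with the filtered reference for all genes and to 0 to 4 when 1 mouse was left out; for Fn14ko against MRL/+ they stayed at 0 under all.

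Listed genes called in at least 1 comparison were 5 (cell cycle), 3 (radial glia and stem cell), 4 (progenitor and neuroblast), 4 (granule neuron) and 4 (niche). All 5 counts fell to 0 with the array as random block. Without the weak array they were 12, 6, 11, 6 and 11, and with no filter 1 for radial glia and 7 for progenitors. With the filtered reference for all genes they were 3 for cell cycle and 1 for niche genes. When 1 mouse was left out they ranged from 0 to 17, 1 to 12, 2 to 9, 3 to 9 and 0 to 16, with the highest count of each list reached without MRL/lpr replicate 2 (for progenitors, without replicate 1 as well).

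With the filtered reference for all genes, chosen after seeing the data, fold changes shift by construction, and for MRL/lpr against MRL/+ Sox11 turned to 0.18. For MRL/lpr against Fn14ko, Neurod1, Sox11, Dcx and Calb2 turned to 0.38, 0.79, 0.67 and 1.43, and for Fn14ko against MRL/+ Neurod1, Sox11, Calb2 and Mki67 turned to -0.65, -0.61, -0.62 and -0.86. The other reversed fold changes (log2) were as follows. For MRL/lpr against MRL/+, Sox2 went from 0.07 to -0.47 with no filter, -0.39 with quantile normalization, -0.99 with the processed signal, -0.32 without the weak array, -0.18 in Cy5 samples, and -0.26 to 0.37 when 1 mouse was left out. Neurod1 turned to 0.52 without the weak array and 0.72 in Cy3 samples without it, Sox11 to 0.32, 0.23 and, in Cy5 samples, 0.23, and Calb2 to -0.01 with quantile normalization. For MRL/lpr against Fn14ko, Sox2 turned to -0.63 with no filter, Neurod1 to 0.92 without the weak array and 1.23 in Cy3 samples without it, Sox11 to 0.68 and 0.42, and Calb2 to 0.33 (quantile), 0.35 (processed signal), 0.61 (no weak array), 0.45 (Cy5), 0.77 (Cy3 without the weak array) and -0.42 to 0.66 (1 mouse left out). For Fn14ko against MRL/+, Nes and Sox2 turned to 0.37 and 0.15 with no filter. Neurod1 turned to -0.29 (quantile), -0.40 (no weak array), -0.46 (Cy3) and -0.51 (Cy3 without the weak array), and Sox11 to -0.04, -0.36, -0.14 and -0.19. Dcx turned to 0.35 (processed signal), 0.03 (methods' t-test), 0.10 (Cy5) and -0.13 to 0.10 (1 mouse left out). Calb2 turned to -0.34 (quantile), -0.37 (no weak array), -0.40 (Cy5) and -0.39 to 0.69 (1 mouse left out), and Mki67 to -0.61 (no weak array), -0.51 (Cy5) and -0.23 to 0.36 (1 mouse left out). Fn14ko against MRL/+ holds no sample of the weak array, so its reversals without that array came with the move to the filtered scale.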
